A study of Mus musculus with 8 samples.

Results

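A set of 10 genes of lipoprotein metabolism and its control, of the 25466 genes in the count table, were followed across 4 subsets of mouse medullary thymic epithelial cells (mTECs). They were taken by symbol, with no threshold on a measured value, from a list drawn up with earlier results of these data known. The list holds the transcription factors Hnf4a and Hnf4g, the apolipoproteins Apoa1, Apoa2, Apoa4, Apob, Apoc2 and Apoc3, the lipid loading protein Mttp and the fatty acid carrier Fabp1, and all 10 passed the filter on low counts. The data are RNA-seq counts of 8 libraries, with 2 libraries for each subset. The mTECs came from the thymus of wild-type BL6N6 mice of 4 to 6 weeks, with no treatment and no transgene in any group. After CD45 depletion they were sorted as Epcam-positive, CDR1-negative cells by surface Tspan8 and MHCII into Tspan8negMHCIIlo, Tspan8negMHCIIhi, Tspan8posMHCIIhi and Tspan8posMHCIIlo. Tspan8, a tetraspanin, stood in this study for 1 tissue-restricted antigen, and MHCII for maturation, with both immature and late mTECs in the MHCIIlo gate. The number of mice behind a library was not given in the sources used here.

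HNF4 proteins are nuclear receptors that bind DNA as dimers at direct repeats, and in the intestine and liver they drive genes of nutrient uptake and lipoprotein export. In enterocytes and hepatocytes, apolipoprotein B is loaded with triglyceride by the microsomal triglyceride transfer protein encoded by Mttp, while smaller apolipoproteins join the particle and control lipases and receptors in the circulation. Medullary thymic epithelial cells transcribe many genes of other tissues, partly under the control of Aire, and thereby expose developing T cells to self-antigens. Some mTECs take on expression programs that resemble those of peripheral cell types, among them an enterocyte- and hepatocyte-like program in which Hnf4 factors are known.

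Library totals lay between 1941518 and 7783841 counts, with the smallest in Tspan8posMHCIIlo replicate 1 and the largest in Tspan8posMHCIIlo replicate 2. Levels are given as CPM, the usual count scaled to library size, here after TMM scaling. The floor of 3 counts corresponded to between 0.385 and 1.65 CPM. Floors and count intervals cover counting error only, because copies made by amplification could not be told from separate molecules. All 12 mTEC markers listed passed the filter, with a summed level between 5002 and 10640 CPM, and Tspan8 itself, which set the gate, was higher in Tspan8pos by log2 fold changes of 5.24 in MHCIIlo and 5.56 in MHCIIhi. Thymocyte markers summed to 485 and 1347 CPM in the replicates of Tspan8negMHCIIlo and to between 72.6 and 229 CPM in the other 6 libraries. Tspan8negMHCIIlo replicate 2 thus stood apart, and values without it are given for Apoa1, Apoa4 and Apoc3. For Apoa2 and Apoc2 the range with each library left out in turn is given instead. In sorted bulk samples, fewer cells of a type and less RNA per cell cannot be told apart.

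The 10 genes lay at 8 sites on 7 chromosomes (GRCm38). Apoa1 (chr9:46228580-46230466, plus strand), Apoc3 (chr9:46232933-46235636, minus strand) and Apoa4 (chr9:46240696-46243459, plus strand) are adjacent. The start of Apoc3 lies 7056 bases and that of Apoa4 12116 bases from the start of Apoa1. Apoa2 lies at chr1:171225054-171226379, Apoc2 at chr7:19671579-19677941 on the minus strand and Apob at chr12:7977648-8016835. Mttp lies at chr3:138089854-138144968 on the minus strand and Fabp1 at chr6:71199827-71205023. Hnf4a spans chr2:163506808-163572910 and Hnf4g chr3:3508030-3658052. Stretches of read length were shared with other annotated genes for 60.16% of positions in Apoa4 (antisense Gm10680 and Gm47528), 78.16% in Apoc2 (Gm44805, a transcript that runs through Apoc2 on the same strand) and 7.04% in Mttp, so counts of these 3 genes are uncertain. The other 7 genes shared none.

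Across the subsets, the 10 genes were called with MHCII more often than with Tspan8. Within Tspan8neg mTECs, 8 of the 10 were called higher in MHCIIhi than in MHCIIlo, where 13.1% of the 17006 genes tested were. Within Tspan8pos mTECs, 6 of the 10 were called higher in MHCIIhi, against 4.59% of all genes. A call required a log2 fold change of 1 or more in size together with an adjusted p (Benjamini-Hochberg, edgeR's quasi-likelihood test) below 0.01. Between the Tspan8 subsets, only 1 of the 10 was called in MHCIIlo, Hnf4g, against 12.1% of all genes higher in Tspan8pos, and only 1 in MHCIIhi, Hnf4a, against 11.0%. No gene of the 10 was called lower in Tspan8pos or in MHCIIhi. The median log2 fold change of the 10 was 2.50 in the MHCII comparison of Tspan8neg and 2.49 in that of Tspan8pos, beside medians over all genes of -0.04 and 0.01. In the Tspan8 comparisons it was 0.10 in MHCIIlo and 0.19 in MHCIIhi, beside -0.03 in both over all genes.

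**Figure D1:**
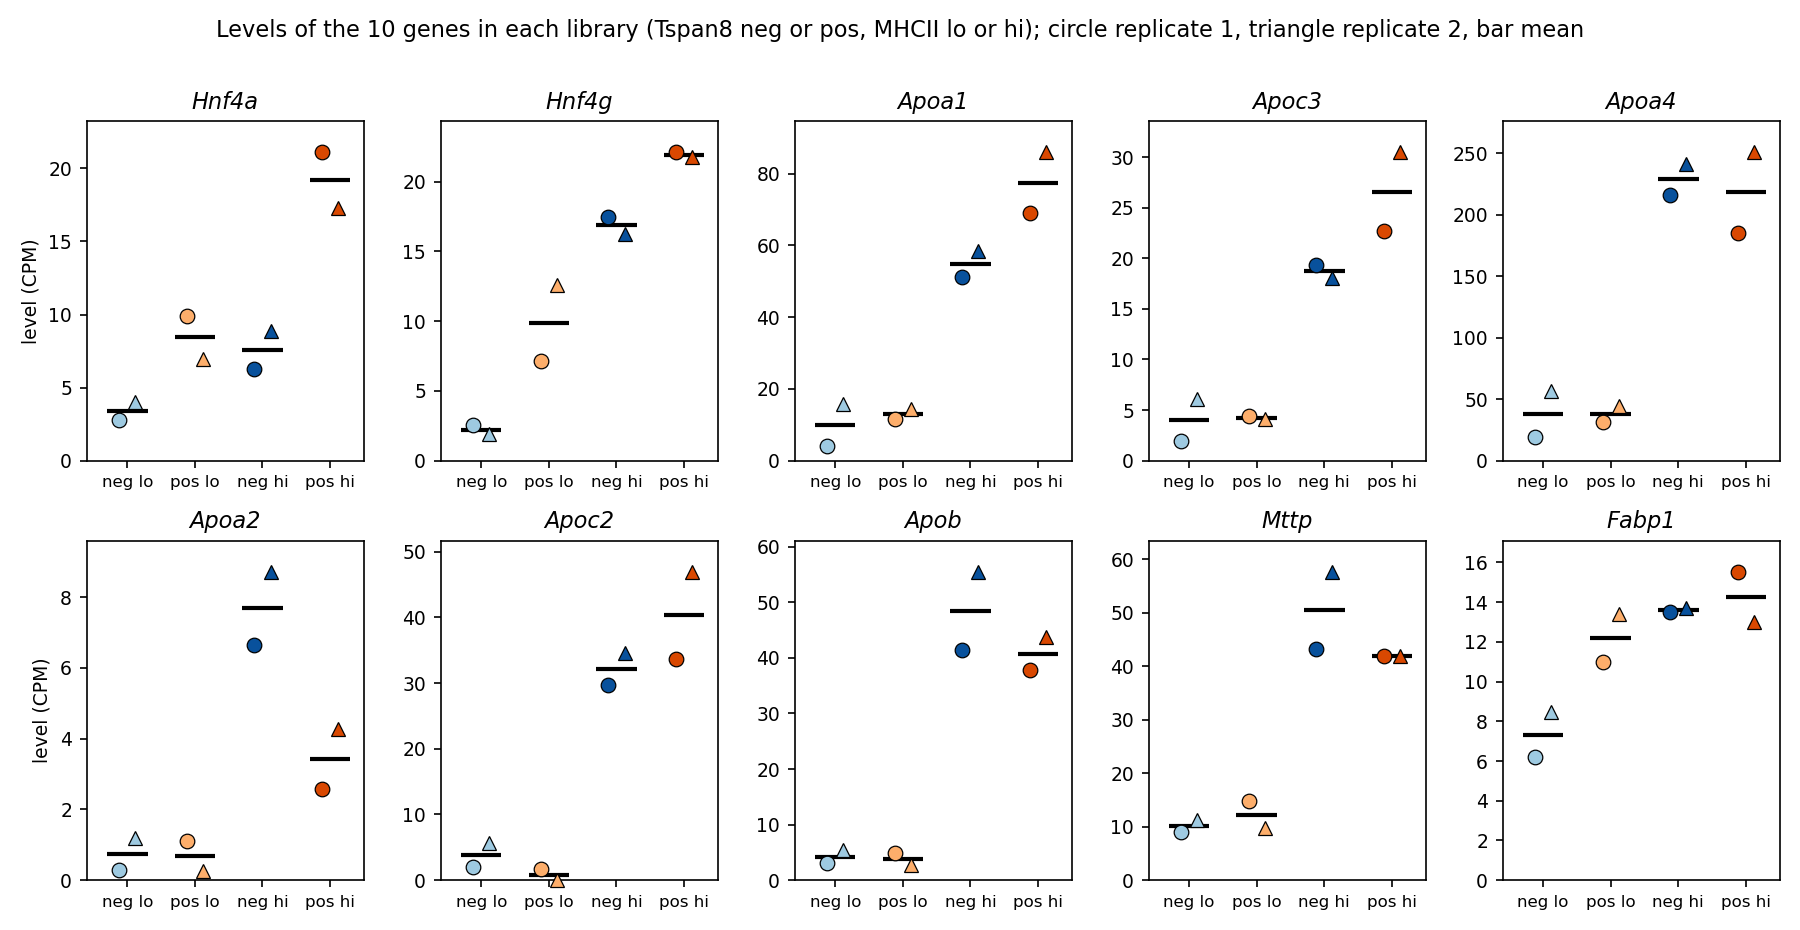
Level of each of the 10 genes in CPM (vertical axes, from 0) in the 8 libraries, by subset: Tspan8neg (neg) or Tspan8pos (pos), MHCIIlo (lo) or MHCIIhi (hi). Circles are replicate 1, triangles replicate 2 and bars the mean of both. For Apoa4 the MHCIIhi libraries sit between 185 and 251 CPM and the MHCIIlo libraries between 18.8 and 56.4, while Hnf4a in Tspan8posMHCIIhi sits above every other library.

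Summed over the 10 genes, the level was 50.8 and 116 CPM in Tspan8negMHCIIlo and 97.8 and 109 CPM in Tspan8posMHCIIlo. It was 445 and 513 CPM in Tspan8negMHCIIhi and 452 and 556 CPM in Tspan8posMHCIIhi, so the MHCII levels did not overlap and the Tspan8 levels did. Apoa4 alone made up between 32.0% and 48.6% of that sum in every library. Per kilobase of the longest transcript, Apoa4 stood at the top with 126 ± 9.54 CPM per kb (SD, n = 2) in Tspan8negMHCIIhi and 120 ± 25.5 in Tspan8posMHCIIhi. Apoa1, Apoc2, Fabp1 and Apoc3 came next on this scale, averaged over the 4 subsets. Mttp, Apoa2, Hnf4g, Hnf4a and Apob followed, with Apob at 3.48 ± 0.716 CPM per kb in Tspan8negMHCIIhi. The order depends on the transcript length assumed. With the median annotated length, 4 of the 10 genes kept their rank and Hnf4a moved from rank 9 to 6.

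Hnf4a, which encodes hepatocyte nuclear factor 4 alpha, was highest in Tspan8posMHCIIhi, at 21.1 and 17.3 CPM in the 2 replicates. It stood at 6.24 and 8.84 CPM in Tspan8negMHCIIhi, at 9.89 and 6.96 in Tspan8posMHCIIlo and at 2.81 and 4.01 in Tspan8negMHCIIlo. The libraries of Tspan8posMHCIIhi lay above all others and those of Tspan8negMHCIIlo below, while the middle subsets overlapped. Within MHCIIhi, the log2 fold change of Tspan8pos over Tspan8neg was 1.33 ± 0.31 (SE, edgeR, adjusted p = 0.0064), a 2.51-fold difference. This call was lost with DESeq2 (1.28, adjusted p = 0.0375), after random thinning of the libraries to 1941518 counts (1.35, adjusted p = 0.0101) and without any 1 of the 4 libraries compared, where the log2 fold change was 1.12 to 1.63 and the adjusted p over all alternatives ranged from 0.000858 to 0.0712. The other differences of Hnf4a within 1 Tspan8 or MHCII level were of similar size and missed the threshold. They were 1.22 ± 0.39 between the Tspan8 subsets of MHCIIlo (adjusted p = 0.0279), 1.15 ± 0.37 between the MHCII levels of Tspan8neg (0.0285) and 1.26 ± 0.33 between those of Tspan8pos (0.0241). The transcript Hnf4aos, on the opposite strand, overlaps Hnf4a in the annotation, but no stretch of read length was shared between exons.

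Hnf4g, the gamma paralog that in the body is known mainly from the intestine and kidney, was lowest in Tspan8negMHCIIlo. There it had 9 and 8 counts (2.53 and 1.89 CPM), against 17.5 and 16.3 CPM in Tspan8negMHCIIhi, 22.1 and 21.7 in Tspan8posMHCIIhi, and 7.15 and 12.6 in Tspan8posMHCIIlo. All 4 subsets were separate, in the order Tspan8negMHCIIlo, Tspan8posMHCIIlo, Tspan8negMHCIIhi, Tspan8posMHCIIhi. Hnf4g rose with MHCII in Tspan8neg by a log2 fold change of 2.93 ± 0.35 (adjusted p = 7.89e-05) and was higher in Tspan8pos within MHCIIlo by 2.26 ± 0.37 (adjusted p = 0.000634). Without Tspan8posMHCIIlo replicate 2 the latter was 1.70 and no longer called (adjusted p = 0.0252, over a range of alternatives from 9.45e-05 to 0.0252). Within MHCIIhi the Tspan8 difference was 0.38 with a 95% interval from -0.20 to 0.96 (adjusted p = 0.281), and the MHCII difference in Tspan8pos was 1.05 ± 0.28 (adjusted p = 0.0269). The Tspan8 effect on Hnf4g was larger in MHCIIlo than in MHCIIhi by 1.89 ± 0.46 on the log2 scale (interaction, adjusted p = 0.023), which missed the threshold.

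Because a ratio of 2 genes within a library does not depend on library size, the balance of the Hnf4 factors was also read as the ratio of their counts. Hnf4g had 2.80 and 1.84 times the counts of Hnf4a in Tspan8negMHCIIhi, 1.05 and 1.26 times in Tspan8posMHCIIhi and 0.900 and 0.471 times in Tspan8negMHCIIlo. In Tspan8posMHCIIlo the replicates disagreed, at 0.722 and 1.8. The MHCIIhi subsets thus did not overlap in this ratio, which was higher in Tspan8neg, while the MHCIIlo subsets overlapped. Counts were not scaled to transcript length here, so the ratio does not show which factor was the more abundant in a subset. Per kilobase of the longest transcript, Hnf4g had a mean of 9.42 and Hnf4a of 4.40 CPM per kb in Tspan8posMHCIIhi. Averaged over the subsets, Hnf4g ranked 8 and Hnf4a 9 by the longest transcript, but 9 and 6 by the median length.

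Apoa1, the main structural protein of high density lipoprotein, had 51.2 and 58.5 CPM in Tspan8negMHCIIhi and 68.9 and 86.0 in Tspan8posMHCIIhi. It had 11.5 and 14.3 CPM in Tspan8posMHCIIlo and 4.21 and 15.8 in Tspan8negMHCIIlo, where replicate 2 was the higher. Every MHCIIhi library lay above every MHCIIlo library. The log2 fold change with MHCII was 2.41 ± 0.37 in Tspan8neg (adjusted p = 0.000385) and 2.52 ± 0.36 in Tspan8pos (adjusted p = 0.000749). Between the Tspan8 subsets Apoa1 differed by 0.38 in MHCIIlo (95% interval -0.55 to 1.31) and by 0.49 in MHCIIhi (-0.17 to 1.16), and neither was called.

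Apoc3, an inhibitor of triglyceride clearance, had 19.3 and 18.1 CPM in Tspan8negMHCIIhi and 22.7 and 30.5 in Tspan8posMHCIIhi. In the MHCIIlo subsets it had 1.97 and 6.13 CPM (Tspan8neg) and 4.4 and 4.09 CPM (Tspan8pos). Again the MHCII levels did not overlap. The log2 fold change with MHCII was 2.16 ± 0.39 in Tspan8neg (adjusted p = 0.00114) and 2.66 ± 0.39 in Tspan8pos (adjusted p = 0.000955), and the Tspan8 differences were 0.01 and 0.51, not called.

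Apoa4, an intestinal apolipoprotein made with chylomicrons and linked to fat intake, was the most abundant of the 10. Its level was 216 and 241 CPM in Tspan8negMHCIIhi, 185 and 251 in Tspan8posMHCIIhi, 31.3 and 44.8 in Tspan8posMHCIIlo, and 18.8 and 56.4 in Tspan8negMHCIIlo. The 2 MHCIIhi subsets overlapped each other and so did the 2 MHCIIlo subsets. Apoa4 rose with MHCII by a log2 fold change of 2.59 ± 0.37 in Tspan8neg (adjusted p = 0.000231) and 2.47 ± 0.37 in Tspan8pos (adjusted p = 0.00102). The Tspan8 difference was 0.05 in MHCIIlo (95% interval -0.79 to 0.90) and -0.07 in MHCIIhi (-0.79 to 0.66). Apoa1 and Apoa4 were nevertheless called higher in Tspan8pos within MHCIIlo when Tspan8negMHCIIlo replicate 2 was left out (log2 fold changes 1.68 and 1.08, adjusted p = 0.00271 and 0.00816), while over all alternatives the adjusted p reached 0.885 for Apoa1 and 0.981 for Apoa4.

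The 3 genes of the chromosome 9 cluster kept similar proportions to each other. Apoc3 had between 0.286 and 0.467 times the counts of Apoa1 in the 8 libraries, with Tspan8negMHCIIlo (0.467 and 0.388) above the other subsets, which overlapped. Apoa4 had 4.47, 3.57, 4.23 and 4.12 times the counts of Apoa1 in the 4 Tspan8neg libraries and 2.69, 2.92, 2.71 and 3.12 times in the 4 Tspan8pos libraries. The Tspan8 levels did not overlap in this ratio, which was looked at after the levels were seen and was not tested. The fewest counts behind it were the 15 counts of Apoa1 in Tspan8negMHCIIlo replicate 1, and the antisense genes that share sequence with Apoa4 limit what the ratio counts.

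**Figure D2:**
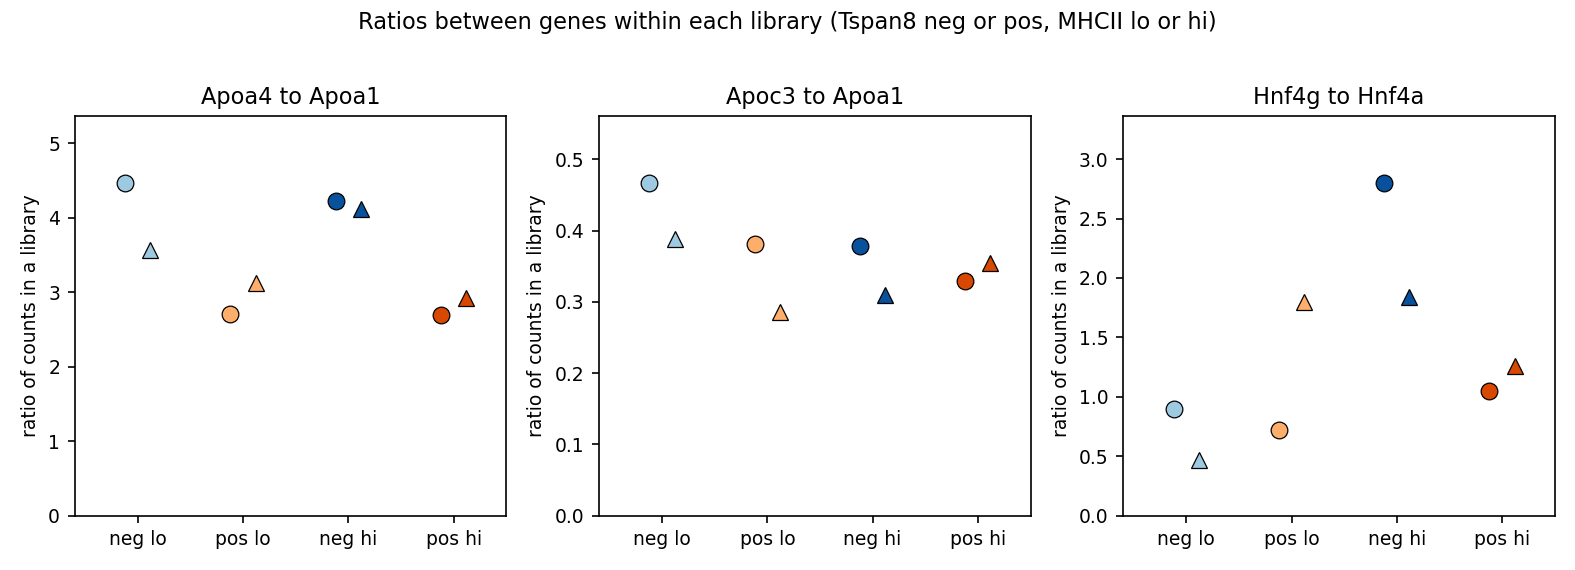
Ratio of the counts of 2 genes within each library (vertical axes, no unit, from 0) by subset, with circles for replicate 1 and triangles for replicate 2. The ratio of Apoa4 to Apoa1 is 3.57 or more in the Tspan8neg libraries and 3.12 or less in the Tspan8pos libraries, that of Apoc3 to Apoa1 lies between 0.286 and 0.467, and that of Hnf4g to Hnf4a peaks in Tspan8negMHCIIhi.

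Beside this cluster, Zpr1, Bud13 and Sik3 were not called with MHCII. Zpr1, 44484 bases from the start of Apoa1, had log2 fold changes with MHCII of -0.26 ± 0.15 in Tspan8neg and 0.03 ± 0.15 in Tspan8pos. Bud13, next to it, had -0.41 ± 0.25 and 0.30 ± 0.26, and Sik3, on the other side, 0.36 ± 0.15 and -0.16 ± 0.16. Apoa5, the fourth apolipoprotein gene of the cluster and a triglyceride regulator, was rare, with 12 and 17 counts in Tspan8negMHCIIhi, 2 and 3 in Tspan8posMHCIIhi and 0 in all 4 MHCIIlo libraries. It was called higher with MHCII in Tspan8neg (adjusted p = 0.00826), with no fold given against counts of 0. Its counts in Tspan8negMHCIIhi were 4.56 times those in Tspan8posMHCIIhi at equal depth (exact 95% interval 1.75 to 15.1, counting error only), and in edgeR this difference was not called (adjusted p = 0.074).

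**Figure D3:**
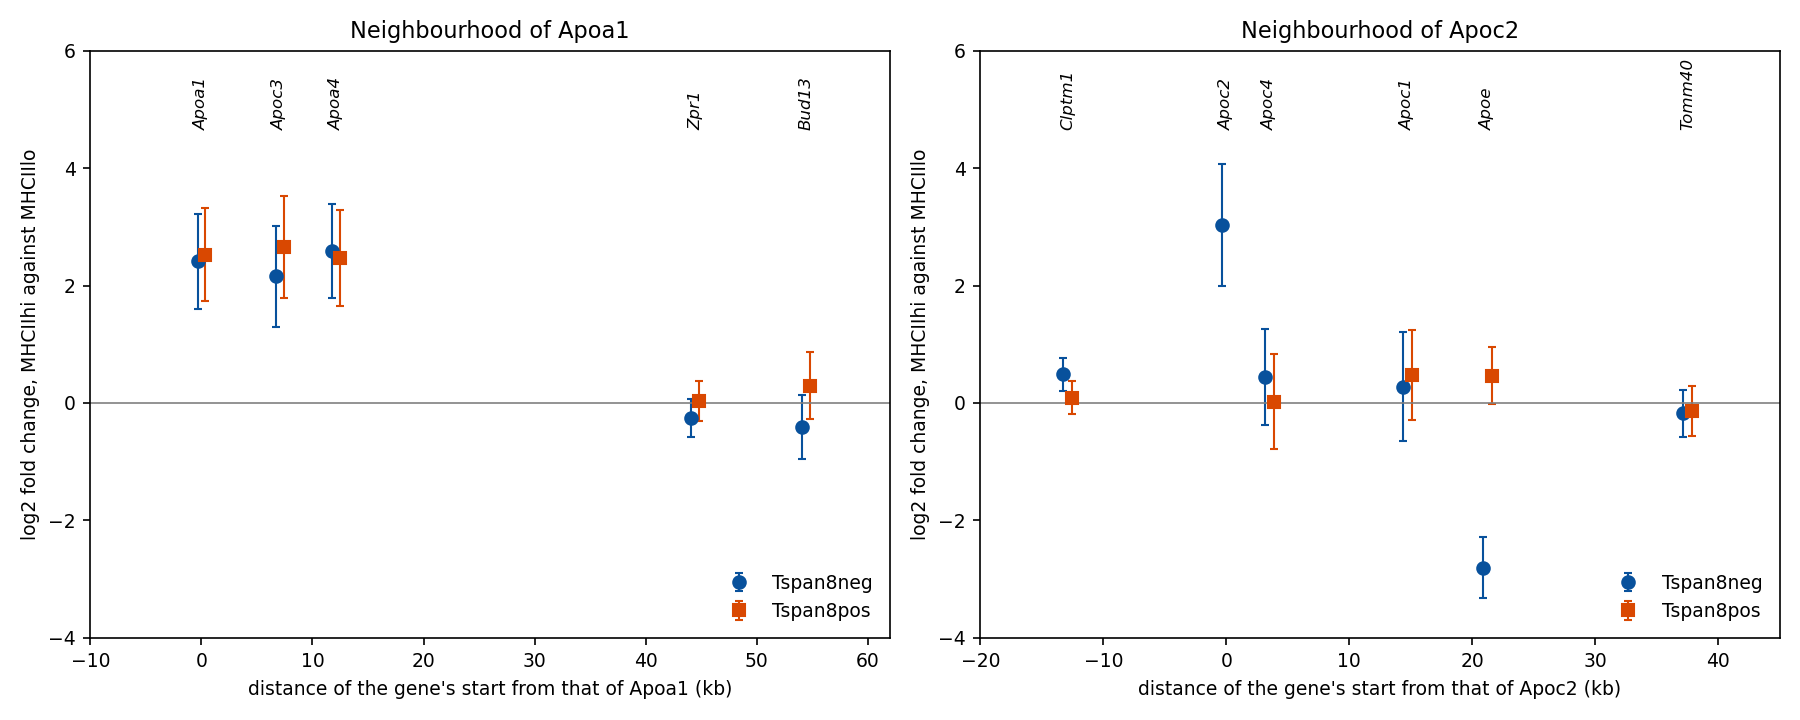
Log2 fold change of MHCIIhi over MHCIIlo (vertical axes, with 95% intervals from edgeR) for genes around Apoa1 (left) and Apoc2 (right) against the distance of each gene's start from theirs in kb, with circles for Tspan8neg and squares for Tspan8pos. Apoa1, Apoc3 and Apoa4 lie between 2.16 and 2.66 while Zpr1 and Bud13 lie near 0, and on the right Apoc2 is at 3.03 and Apoe at -2.81 in Tspan8neg. Apoc2 in Tspan8pos and Apoa5 are not drawn for their few counts, nor are genes farther out, among them Sik3, Relb, Clasrp and Bcam.

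The windows just before the annotated starts are shown for 3 genes that rose together with MHCII, the cluster pair Apoa1 and Apoa4 and the unlinked Apob, to put sequence beside their levels. Each is 100 bases of the plus strand of GRCm38.p6 from RefSeq, the strand of the gene, ending at the base before the GENCODE start. Capitals mark matches, on either strand, to CAAAGNNCA and to the TATA box TATAAA. The first covers CAAAGTCCA and CAAAGGTCA, core sequences known from HNF4 binding.
Apoa1 (chr9:46228480-46228579): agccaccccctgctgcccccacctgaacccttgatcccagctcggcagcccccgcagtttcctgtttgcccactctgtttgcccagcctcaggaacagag
Apoa4 (chr9:46240596-46240695): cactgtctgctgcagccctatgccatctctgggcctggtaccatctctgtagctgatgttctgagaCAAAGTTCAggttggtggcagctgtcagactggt
Apob (chr12:7977548-7977647): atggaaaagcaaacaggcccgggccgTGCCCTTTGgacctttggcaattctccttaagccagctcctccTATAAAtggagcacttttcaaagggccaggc

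Over longer windows, from 250 bases before to 50 after each RefSeq start, CAAAGNNCA was found in 6.36% of 32851 promoters and among the genes matched here in Apoa4, 182 bases before the start, and on the minus strand in Apob, 103 bases before it. The exact core sequences, present in 0.475% (CAAAGTCCA) and 0.478% (CAAAGGTCA) of promoters, were found in none of the 10 windows of the 8 genes with an entry. Full direct repeats were not searched for. TATAAA, present in 13.6% of promoters, was found 60 bases before the start in Apob, 212 bases before it in Apoa2 and 30 bases before it in Fabp1. Neither CAAAGNNCA nor TATAAA was in the windows of Hnf4a, Apoa1, Apoc2 and Mttp or in the second window of Apoa2. TATAAA was not in the window of Apoa4 either. Distances are from the RefSeq start, which differs from the GENCODE start for some genes. Such matches are descriptions of sequence, not binding sites.

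Apoa2, the second protein of high density lipoprotein, was the rarest in CPM of the 6 apolipoproteins among the 10 genes. It had 32 and 68 counts in Tspan8negMHCIIhi (6.66 and 8.72 CPM), 13 and 21 counts in Tspan8posMHCIIhi (2.59 and 4.27 CPM) and 5 or fewer in each MHCIIlo library. The MHCIIhi subsets were separate from each other and from both MHCIIlo subsets, which overlapped. At equal depth, the summed counts of Apoa2 were 10.3 times higher with MHCII in Tspan8neg (exact 95% interval 4.57 to 28.7, counting error only). The fitted log2 fold change was 3.30 ± 0.68, and 2.69 to 4.67 with each library left out in turn. With all libraries, Apoa2 was called higher with MHCII in Tspan8neg (edgeR, adjusted p = 0.00249). This call was lost without Tspan8negMHCIIlo replicate 1, Tspan8negMHCIIhi replicate 1 or Tspan8negMHCIIhi replicate 2 (log2 fold changes 2.69, 3.48 and 3.09, adjusted p = 0.0102, 0.0113 and 0.0319). In Tspan8pos the ratio was 7.82 (2.79 to 30.3) and was not called (adjusted p = 0.0345). Apoa2 was also lower in Tspan8posMHCIIhi than in Tspan8negMHCIIhi, with a log2 fold change of -1.17 ± 0.53 that was not called (adjusted p = 0.107).

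Apoc2, the cofactor that activates lipoprotein lipase, showed the widest span. It had 29.7 and 34.6 CPM in Tspan8negMHCIIhi and 33.7 and 46.9 in Tspan8posMHCIIhi, and 1.97 and 5.66 CPM in Tspan8negMHCIIlo from 7 and 24 counts. In Tspan8posMHCIIlo it had 3 counts in replicate 1 and 0 in replicate 2, the deepest library of all. The MHCII levels did not overlap, and within MHCIIlo the Tspan8 subsets did not overlap either. At equal depth, Apoc2 counts in Tspan8posMHCIIhi were 123 times those in Tspan8posMHCIIlo, with an exact 95% interval from 41.6 to 597 for counting error only, and the difference was called (adjusted p = 9.84e-05). The size rested on the 0 counts of Tspan8posMHCIIlo replicate 2, without which the ratio was 24.4 (8.28 to 119, from 3 counts) and the call held (adjusted p = 0.00601). In Tspan8neg the log2 fold change of Apoc2 with MHCII was 3.03 ± 0.47 (adjusted p = 0.000446 in edgeR, 0.0287 in DESeq2). With each library left out in turn, it ran from 2.51 to 4.02.

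Within MHCIIlo, Apoc2 went the opposite way to Hnf4a and Hnf4g. Its counts in Tspan8negMHCIIlo were 12.1 times those in Tspan8posMHCIIlo at equal depth (exact 95% interval 3.78 to 61.9, counting error only). Without Tspan8posMHCIIlo replicate 2 the ratio was 2.41 (0.751 to 12.3) and the adjusted p was 0.37. In edgeR the difference was not called with all libraries (adjusted p = 0.0163). It was called in 4 of 14 alternatives, among them the edgeR fit in which no genes were filtered out (adjusted p = 0.00307). With each library left out in turn, the log2 fold change of Tspan8pos over Tspan8neg ran from -7.41 to -1.24. Of the 31 counts of Apoc2 in Tspan8negMHCIIlo, 24 were in replicate 2, the library that stood apart in thymocyte markers. For Apoc2 the interaction of Tspan8 and MHCII gave an adjusted p of 0.0412. Since Apoc2 shares most of its sequence with a transcript that runs through it, these counts may hold reads of both.

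Near Apoc2 on chromosome 7, Apoc4 and Apoc1 were not called with MHCII, and Apoe was called in the opposite direction in Tspan8neg. The annotated span of Gm44805 (19671584 to 19681423) also reaches over Apoc4 (19678083 to 19681479), whose shared sequence was not measured, so its counts are uncertain too. Apoc4, whose start lies 3538 bases away, had log2 fold changes with MHCII of 0.44 ± 0.37 in Tspan8neg and 0.02 ± 0.37 in Tspan8pos, and Apoc1, a minor apolipoprotein of the same cluster, had 0.28 ± 0.42 and 0.47 ± 0.35. Apoe, the ligand of remnant receptors and 21247 bases from the start of Apoc2, fell with MHCII in Tspan8neg, from 1884 and 1543 counts in Tspan8negMHCIIlo to 293 and 518 in Tspan8negMHCIIhi. Its log2 fold change there was -2.81 ± 0.23 (adjusted p = 6.9e-06), opposite to that of Apoc2, while in Tspan8pos it was 0.47 ± 0.22 and not called (adjusted p = 0.19). Farther out but within 100 kb of Apoc2, Relb was called higher with MHCII in Tspan8neg (1.18 ± 0.14) and Clasrp and Bcam lower (-1.53 ± 0.16 and -2.42 ± 0.20), and none of these 3 was called in Tspan8pos. In single libraries Apoe had 269 and 64.3 times the counts of Apoc2 in Tspan8negMHCIIlo, and 2.05 and 1.92 times in Tspan8negMHCIIhi.

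Apob, the large structural protein of chylomicrons and very low density lipoprotein, rose with MHCII in both Tspan8 subsets. It had 41.4 and 55.5 CPM in Tspan8negMHCIIhi and 37.8 and 43.7 in Tspan8posMHCIIhi, against 3.09 and 5.42 in Tspan8negMHCIIlo and 4.95 and 2.73 in Tspan8posMHCIIlo. The MHCII levels lay far apart and the Tspan8 subsets overlapped at each. The log2 fold change with MHCII was 3.48 ± 0.30 in Tspan8neg (11.2-fold, adjusted p = 9.34e-06) and 3.62 ± 0.33 in Tspan8pos (12.3-fold, adjusted p = 3.63e-05). Both calls held in all 15 alternatives tried for each. Between the Tspan8 subsets Apob differed by -0.39 (95% interval -1.32 to 0.53) in MHCIIlo and by -0.26 (-0.76 to 0.25) in MHCIIhi.

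Mttp, whose product lipidates apolipoprotein B in the endoplasmic reticulum, had 43.3 and 57.7 CPM in Tspan8negMHCIIhi and 42.0 and 41.9 in Tspan8posMHCIIhi. It kept 8.99 and 11.3 CPM in Tspan8negMHCIIlo and 14.8 and 9.69 in Tspan8posMHCIIlo. Again the MHCII levels were separate. The log2 fold change with MHCII was 2.31 ± 0.24 in Tspan8neg (adjusted p = 3.17e-05) and 1.89 ± 0.25 in Tspan8pos (adjusted p = 0.000422). These are 4.96-fold and 3.69-fold, beside 11.2-fold and 12.3-fold for Apob, and the difference between the genes was not tested. The Tspan8 differences of Mttp were 0.15 and -0.27, not called.

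Fabp1, a fatty acid carrier of enterocyte and hepatocyte cytoplasm, stood apart from the other 9 in that it was called in none of the 4 comparisons. Its level was 6.18 and 8.49 CPM in Tspan8negMHCIIlo, 11.0 and 13.4 in Tspan8posMHCIIlo, 13.5 and 13.7 in Tspan8negMHCIIhi, and 15.5 and 13.0 in Tspan8posMHCIIhi. Only Tspan8negMHCIIlo lay below the others, and the other subsets ran close together. The log2 fold change with MHCII was 0.88 ± 0.28 in Tspan8neg (adjusted p = 0.0261) and 0.19 in Tspan8pos, with a 95% interval from -0.41 to 0.79. Its share of the summed level of the 10 genes was between 7.30% and 12.3% in the MHCIIlo libraries and between 2.34% and 3.44% in the MHCIIhi libraries.

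**Figure D4:**
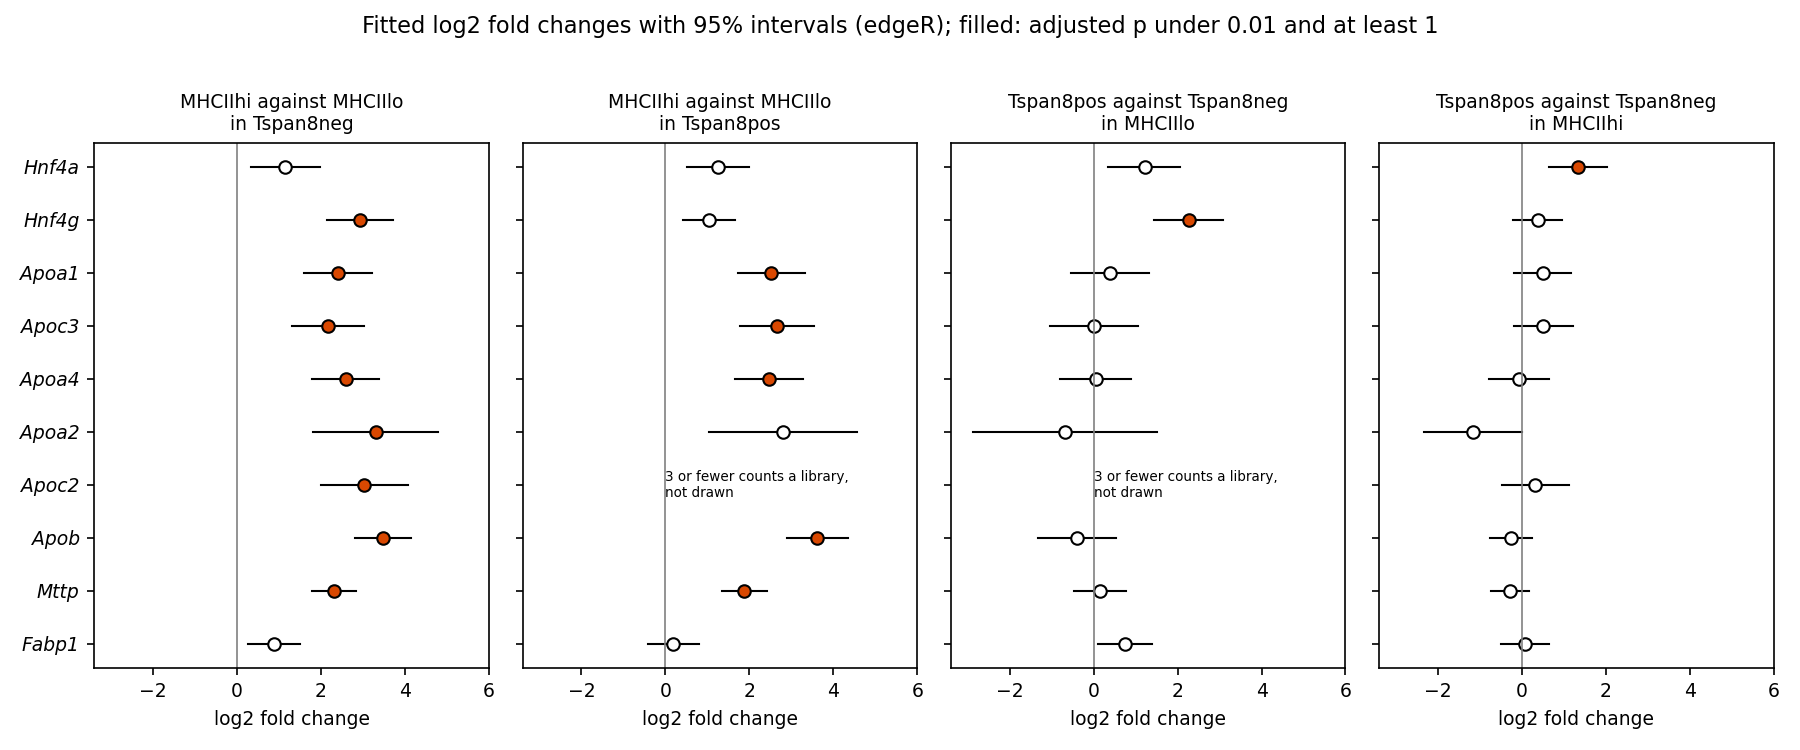
Fitted log2 fold changes of the 10 genes (horizontal axes) with 95% intervals from edgeR in the 4 comparisons, filled where the adjusted p was under 0.01 and the size at least 1. In both MHCII comparisons most genes sit between 1 and 4, in the Tspan8 comparisons most sit near 0, with Hnf4g filled in MHCIIlo and Hnf4a in MHCIIhi. Apoc2 is not drawn in the comparisons with Tspan8posMHCIIlo, where it had 3 or fewer counts in each library. Apoa2 is drawn there, from 2 counts in each library of Tspan8posMHCIIlo.

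The interaction, which tests whether the Tspan8 effect differs between the MHCII levels, was called for 0 of the 10 genes in edgeR and for 0 in DESeq2, with 2 genes, Hnf4g and Apoc2, at an unadjusted p under 0.05. It was called for 4.60% of all genes. The fitted interactions of the other 8 genes ran from -0.50 (Apoc3) to 0.69 (Fabp1) on the log2 scale, with standard errors from 0.35 to 1.26. A miss of the threshold does not show that the Tspan8 effects were equal.

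Across the diagonals, 7 of the 10 genes were called lower in Tspan8posMHCIIlo than in Tspan8negMHCIIhi, where 14.6% of all genes were, and 8 were called higher in Tspan8posMHCIIhi than in Tspan8negMHCIIlo, where 14.4% were. These comparisons share libraries with those above. The genes not called in the first were Hnf4a, Hnf4g and Fabp1. Between Tspan8posMHCIIlo and Tspan8negMHCIIhi, Hnf4a had a log2 fold change of 0.07 with a 95% interval from -0.69 to 0.83, while Apoa1 and Apoa4 were lower in Tspan8posMHCIIlo by -2.03 ± 0.36 and -2.53 ± 0.37. In the second diagonal Hnf4a differed by 2.47 ± 0.36 and Hnf4g by 3.31 ± 0.35, and Apoa2 and Fabp1 were not called.

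The calls in Tspan8pos rested on single libraries more than those in Tspan8neg. With 1 library left out, the count called in the MHCII comparison of Tspan8neg was 7 or 8, and that of Tspan8pos was 2 to 7. It fell to 3 without Tspan8posMHCIIhi replicate 2 or Tspan8posMHCIIlo replicate 1 and to 2 without Tspan8posMHCIIlo replicate 2. Apob and Apoc2 were called in Tspan8pos in all alternatives, while Apoa1, Apoa4 and Apoc3 each lost the call without any of those 3 libraries, with log2 fold changes of 2.23 or more. Without Tspan8negMHCIIlo replicate 2, the log2 fold changes of Apoa1, Apoa4 and Apoc3 with MHCII in Tspan8neg were 3.70, 3.6 and 3.23.

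Markers of other cell types differed between the subsets as well. Of 8 thymocyte markers, 6 were called lower in MHCIIhi within Tspan8neg (9.67% of all genes were) and 4 lower in Tspan8pos within MHCIIlo (9.34%), with 0 called in the other 2 comparisons. B cell and myeloid markers summed to between 302 and 421 CPM in the MHCIIhi libraries and between 59.55 and 135 CPM in the MHCIIlo libraries, with 2 of 8 called higher with MHCII in Tspan8neg and 1 in Tspan8pos. Lyz2 made up most of that sum in MHCIIhi, with means of 305 CPM in Tspan8neg and 240 CPM in Tspan8pos. Cortical thymic epithelial markers summed to between 443 and 910 CPM in MHCIIhi and between 115 and 433 CPM in MHCIIlo, and 2 of 5, Tbata and Ccl25, were called higher with MHCII in each Tspan8 subset. The cortical markers Prss16 and Psmb11 had log2 fold changes with MHCII of -1.45 ± 0.39 and -0.86 ± 0.52 in Tspan8neg, not called. Mesenchymal and endothelial markers summed to between 60.55 and 153 CPM in MHCIIhi and between 120.5 and 282 CPM in MHCIIlo, and with MHCII 5 of 7 were called lower and 1 higher in Tspan8neg and 3 lower in Tspan8pos. The only markers at 0 counts in a library were Itgax, Adgre1 and Fcer1g, in Tspan8posMHCIIlo replicate 1, the shallowest, and the part of these cells in the levels of the 10 genes was not tested. Aire itself, the factor behind much tissue-restricted expression, had a log2 fold change with MHCII of 3.62 ± 0.26 in Tspan8neg and 4.09 ± 0.29 in Tspan8pos, and of -2.91 ± 0.28 and -2.44 ± 0.25 with Tspan8 in MHCIIlo and MHCIIhi.

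Other apolipoproteins were called in both directions. Of 7 tested, 3 were called higher and 1 lower with MHCII in Tspan8neg, and 1 higher in Tspan8pos. With Tspan8, 2 were called higher and 1 lower in MHCIIlo, and 3 higher and 1 lower in MHCIIhi. Clu, an extracellular chaperone, was higher in Tspan8pos at both MHCII levels, by log2 fold changes of 1.87 ± 0.12 and 2.41 ± 0.12. Apoc1 was higher by 1.89 ± 0.41 and 2.08 ± 0.36. Apod, a lipocalin, was lower in Tspan8pos within MHCIIhi by -1.11 ± 0.23 and rose with MHCII by 3.40 ± 0.28 and 2.63 ± 0.31. Apoe was lower in Tspan8pos within MHCIIlo by -1.67 ± 0.23 and higher within MHCIIhi by 1.61 ± 0.23.

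Of 21 genes of lipid absorption and lipoprotein assembly tested, 8 were called higher and 3 lower with MHCII in Tspan8neg, and 5 higher in Tspan8pos. With Tspan8, 4 were called higher in MHCIIlo and 8 in MHCIIhi, with 0 lower. Dgat2, which makes triglyceride, was higher in Tspan8pos by log2 fold changes of 3.06 ± 0.19 in MHCIIlo and 1.54 ± 0.17 in MHCIIhi. Apobec1, the enzyme that edits Apob transcripts, was higher by 2.43 ± 0.18 and 1.1 ± 0.16. Slc27a4, a fatty acid transport protein, was higher by 2.02 ± 0.15 and 2.30 ± 0.14, and Cideb, which takes part in lipoprotein lipidation, by 1.39 ± 0.28 and 1.75 ± 0.23.

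Lipoprotein receptors and lipases were called in both directions. Of 18 tested, 3 were called higher and 6 lower in Tspan8pos within MHCIIlo, and 5 higher and 2 lower within MHCIIhi, where 7.45% of all genes were called lower. With MHCII, 3 were called higher and 3 lower in Tspan8neg, and 1 in each direction in Tspan8pos (2.62% of all genes were lower). The genes named here were all lower in Tspan8pos, while those called higher are not named. Pltp, a phospholipid transfer protein, was lower in Tspan8pos within MHCIIlo by -2.56 ± 0.19. Lipg, the endothelial lipase, was lower at both MHCII levels, by -2.54 ± 0.24 and -1.61 ± 0.21. Lcat, which esterifies cholesterol in plasma, had 22 and 23 counts in Tspan8negMHCIIlo and 0 and 3 in Tspan8posMHCIIlo, a ratio of 17.6 at equal depth (exact 95% interval 5.64 to 88.4, counting error only).

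The transcription factors that work beside HNF4 in gut and liver were called higher with MHCII in Tspan8neg for 6 of 16 tested, with 1 lower, and in Tspan8pos for 3, with 1 lower. With Tspan8, 3 were called higher in MHCIIlo, and 3 higher and 3 lower in MHCIIhi. Foxa1, a pioneer factor of endodermal organs, was higher in Tspan8pos within MHCIIlo by a log2 fold change of 2.17 ± 0.26. Cebpa was higher by 1.57 ± 0.17 and 2.12 ± 0.17 in MHCIIlo and MHCIIhi, and Rxra, a nuclear receptor that pairs with many others, by 1.30 ± 0.15 and 1.49 ± 0.14. Nr1i2, the pregnane X receptor, was higher in Tspan8pos within MHCIIhi by 2.16 ± 0.55, with 33 and 41 counts against 7 and 14.

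The 2 tissues that share these genes were also read through their own markers. Of 26 enterocyte markers tested, 14 were called higher and 1 lower in Tspan8pos within MHCIIlo, and 10 higher and 2 lower within MHCIIhi, with median log2 fold changes of 1.24 and 1.03. Of 23 hepatocyte markers, 2 were called higher and 1 lower in MHCIIlo, and 1 higher and 5 lower in MHCIIhi, with medians of -0.22 and -0.90. The medians of the 10 genes, 0.10 and 0.19, lay between those of the marker lists. With MHCII in Tspan8neg 12 enterocyte markers were called higher and 1 lower, and 15 hepatocyte markers higher and 1 lower, and in Tspan8pos the counts were 8 higher and 1 lower, and 8 higher and 0 lower.

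Among the enterocyte markers, Slc5a1, the sodium-glucose transporter, was higher in Tspan8pos by log2 fold changes of 4.74 ± 0.27 in MHCIIlo and 3.89 ± 0.23 in MHCIIhi. Cdhr2, a cadherin of the brush border, was higher by 3.42 ± 0.23 and 1.91 ± 0.21. Rbp2, a retinol carrier of enterocytes, was higher in MHCIIlo by 4.0 ± 0.49, and in MHCIIhi it had 49 and 38 counts in Tspan8pos against 2 and 2 in Tspan8neg, a ratio of 27.6 (exact 95% interval 10.4 to 104, counting error only). Not all enterocyte markers rose with Tspan8, and of the 26 tested, 1 was called lower in MHCIIlo and 2 in MHCIIhi. In MHCIIhi, Alpi had a mean of 3.12 CPM in Tspan8pos against 14.4 in Tspan8neg, and Anpep 17.2 against 34.5. Among the hepatocyte markers, Cps1, a urea cycle enzyme, was lower in Tspan8pos within MHCIIhi by -3.01 ± 0.57, Itih3 by -2.96 ± 0.45 and the fibrinogen chain Fgg by -2.71 ± 0.36. Kng1, the kininogen gene, was higher in Tspan8pos within MHCIIlo by 2.62 ± 0.48.

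**Figure D5:**
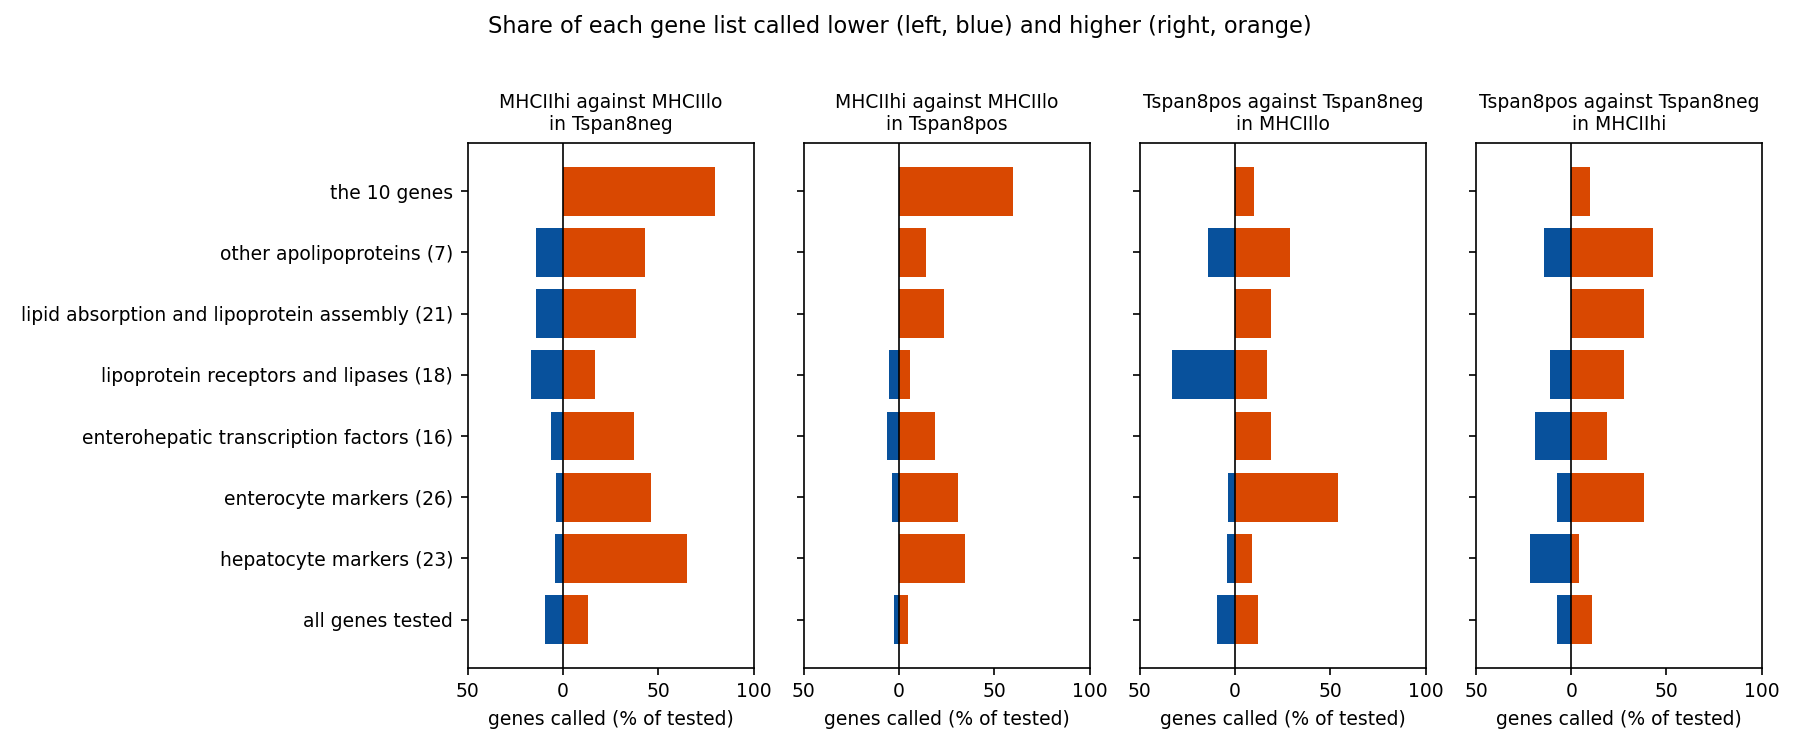
Share of genes called higher (orange, to the right) and lower (blue, to the left) as a percent of those tested (horizontal axes) for the 10 genes, 6 related lists with the number tested in parentheses, and all genes, in the 4 comparisons. The 10 genes reach 8 and 6 of 10 in the MHCII comparisons, and enterocyte markers reach 14 and 10 of 26 in the Tspan8 comparisons.

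Finally, the genes with the most similar profiles over the 8 libraries were listed for Hnf4a, Hnf4g and Apoa4, as the root mean square difference of log2 CPM after centring, among 16845 genes whose mean level reached 1 CPM. For Apoa4 the nearest was Nlrp6, an innate immune sensor of intestinal epithelium, at 0.174, and at ranks 2 and 3 were its cluster neighbours Apoa1, at 0.267, and Apoc3, at 0.289. Slc1a2, Art2a-ps, 4930579C12Rik and Clrn3 followed, at 0.292 to 0.295. Nearest to Hnf4a were Mgam2-ps (0.170), Cyp4v3, Acox2, Il12rb2 and Prss2 (0.249), and nearest to Hnf4g were Skint4 (0.239), Zp2, Csf2, Scnn1g and Naip2 (0.289). The Hnf4 factors differed by 0.722 on this measure, which ranked 2013 from Hnf4a and 509 from Hnf4g. From Hnf4g, Hnf4a was the nearest of the other 9 genes. From Hnf4a, the nearest of the other 9 genes was Fabp1, at 0.596 and rank 810, and Apob (1.35) and Apoc2 (2.07) were the farthest. The distances come from 8 libraries that share their subsets and depth and carry no test.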

How the data were processed

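RNA was extracted from FACS-isolated mTECs, and according to the study's methods cDNA was pre-amplified, fragmented by a transposase and sequenced as single-end reads of 54 bases, whereas the sample labels name a strand-specific mRNA kit. Whether counting used the strand is therefore not settled. The authors quantified reads with Salmon 1.8.0 on Gencode transcripts and deposited estimated counts per gene, as whole numbers without normalization. The submitters' processing notes also name FastQC, DESeq2 1.30.0 and mm10. Of the identifiers, 25336 of 25466 (99.49%) matched a symbol of the GENCODE annotation of GRCm38. Libraries were grouped by sample title. The labels call replicates biological without naming mice or pools, so p-values measure only the spread between these samples, which may be partly technical.

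The counts, whole as deposited, were fitted in R 4.3.3 with edgeR 4.0.16 (TMM, filterByExpr, quasi-likelihood test, 1 mean per subset over all 8 libraries, common dispersion 0.024), with two-sided p-values adjusted over 17006 genes. An exact permutation test of 2 libraries against 2 has too few arrangements to pass 0.05. Alternatives were DESeq2 1.42.0, its size factors, other filters and thresholds, the libraries of the groups compared alone, a replicate block, thinning to 1941518 counts and leaving out each library. Scripts were tested on simulated data. Ratios at low counts carry exact binomial intervals at 95% confidence. Genes named besides the 10 were, for each list, up to 4 called genes with the largest change in a Tspan8 comparison at a mean of at least 1 CPM (not all are named, and some results are not reported here), protein-coding genes within 100 kb, and the 5 nearest profiles of Hnf4a, Hnf4g and Apoa4. Itgax, Adgre1, Fcer1g, Lyz2, Ccl25, Psmb11, Alpi and Anpep were named after their values were seen. The members and lists were chosen with earlier results of these data known. Sequences are from RefSeq (GRCm38.p6), which matched 8 of the 10 genes, not Hnf4g and Apoc3. The gene Cyp7a1 of the hepatocyte list was not analysed here. Chi-square statistics per gene between replicates were 3.34 to 9.33, so no pair was merged.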

Additional observations from a re-analysis of the deposited data

Results flagged for a closer look

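Given here are 6 genes, among those named beside the 10, that were called for the interaction. It tests whether the Tspan8 effect differs between MHCIIlo and MHCIIhi. Values are the log2 fold change of Tspan8pos over Tspan8neg in MHCIIlo minus that in MHCIIhi (edgeR, Benjamini-Hochberg adjusted p). Of all genes tested, 4.60% were called. The 6 had been named for large Tspan8 changes in these same data, which favours such calls, so their number is no separate evidence. The triglyceride enzyme gene Dgat2 had a difference of 1.52 ± 0.24 (adjusted p = 0.003) and Apobec1, whose product edits Apob transcripts, 1.33 ± 0.24 (adjusted p = 0.0057). The brush border gene Cdhr2 had 1.51 ± 0.30 (adjusted p = 0.00924). In the other direction, Apoe had -3.27 ± 0.32 (adjusted p = 0.000268), the phospholipid transfer gene Pltp -2.02 ± 0.27 (adjusted p = 0.00117) and the basal keratin gene Krt5 -2.83 ± 0.24 (adjusted p = 0.000183).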

How the results depend on the processing

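In every alternative tried, 6 of the 8 calls with MHCII in Tspan8neg and 2 of the 6 in Tspan8pos held, and neither Tspan8 call did. Of the counts and orders, 99 stayed within 1.5 times and 21 did not, and of the values of single genes 669 kept direction and call, 21 lost and 13 gained a call, and 35 uncalled values changed sign. Between Tspan8 subsets in MHCIIlo, where 1 gene was called, 2 were without a filter on low counts and 3 at an adjusted p below 0.05, and with the replicate block 2 were called. Whether same-numbered libraries share mice is not given, and deviations of same-numbered samples correlated at 0.00402 to 0.0924, too low to treat the numbers as pairs here. In MHCIIhi, where 1 was called, 0 were with DESeq2 and 0 after thinning. The interaction gave 1 call without a filter and 2 at an adjusted p below 0.05, in place of 0. By median transcript length, 4 genes kept their rank. Leaving out each library in turn gave 0 to 3 calls with Tspan8 in MHCIIlo, 0 to 1 in MHCIIhi, 7 to 8 with MHCII in Tspan8neg, 2 to 7 in Tspan8pos, 0 to 1 for the interaction, 4 to 7 for Tspan8posMHCIIlo against Tspan8negMHCIIhi (4 without Tspan8posMHCIIlo replicate 2) and 8 in each case for the other diagonal. Uncalled log2 values that changed sign were, for Tspan8 in MHCIIlo, Apoa2 at 0.98 and Apoa4 at -0.0907 after thinning and Apoc3 at -0.0328 with the replicate block, and for the interaction Hnf4a at 0.134 and Apoa1 at 0.438 after thinning, which is 1 random draw. With libraries left out, the Tspan8 value in MHCIIlo ran from -0.223 to 1.68 for Apoa1, -1.40 to 0.664 for Apoa2, -0.496 to 1.08 for Apoa4, -0.738 to 0.191 for Apob, -0.552 to 1.08 for Apoc3 and -0.0747 to 0.539 for Mttp. In MHCIIhi it ran from -0.304 to 0.143 for Apoa4 and -0.057 to 0.189 for Fabp1. The interaction ran from -0.414 to 0.191 for Hnf4a, -0.716 to 1.19 for Apoa1, -0.234 to 1.84 for Apoa2, -0.426 to 1.15 for Apoa4, -0.478 to 0.447 for Apob and -1.06 to 0.566 for Apoc3. With only the 4 libraries compared, Apoa2 and Apoc2 gave no value in MHCIIlo. Why these values moved was not tested; a subset left with 1 library was assumed to vary like the others. Few counts limit Apoa2 and Apoc2 most.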
